A study of Homo sapiens with 17 samples.

Results

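The miR-23, miR-27 and miR-24 microRNAs are encoded by 6 hairpins in 2 paralogous clusters. MIR23A, MIR27A and MIR24-2 lie on the minus strand of chromosome 19, and MIR23B, MIR27B and MIR24-1 on the plus strand of chromosome 9. The members, chosen with earlier results of these data known, were defined by position. They are all 18 to 26 nt alignments inside the 6 hairpin windows of build hg19 and on the hairpin strand. These were 266 distinct alignments, which were summed into 12 arms, a 5p and a 3p arm for each hairpin. All 12 arms passed the filter on low values, among 8832 small RNA features tested across the whole tables.

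Small RNA was sequenced from K562, an established human erythroleukemia line, carrying a short hairpin RNA against Drosha that doxycycline (Dox) switches on. Every library, controls included, carried this construct (genotype Drosha_shRNA_KD). Cultures received Dox at 1 µg/mL or water, side by side, for 3, 13 or 31 d. Paired cultures numbered 2 at 3 d (replicates 1 and 3) and 3 at each later day, described as independent biological replicates. The labels name 1 table for each pair, so 8 tables were used; the 1 untreated library was not analysed here. Each table sets a numerator library over a denominator library, and no source used here states which of them received Dox. A ratio above 1 thus means more reads in the numerator library, whichever treatment that was. It is assumed that the 8 tables were all built in the same direction. Every comparison between days rests on this assumption, and no alternative analysis varied it.

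Drosha, with its partner DGCR8, cuts hairpins out of primary microRNA transcripts in the nucleus, and Dicer then removes the loop to leave a duplex of a 5p and a 3p strand. One strand is loaded into an Argonaute protein and finds targets mainly through its seed, the bases from position 2 to 8; the other strand is mostly degraded. For all 3 microRNAs of these clusters the 3p strand is the one usually kept. miR-27 is known to repress the transcription factor genes RUNX1 and PPARG, and miR-24 cell cycle genes such as MYC.

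The mature sequences show why some paralogs can be told apart in these data and others cannot. They are RefSeq sequences (GRCh38.p14), with the seed in capitals; all 12 mature entries and 6 hairpins of the clusters were matched by symbol. The 3p arms come first, as they form 3 seed families.
miR-23a-3p: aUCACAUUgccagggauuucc
miR-23b-3p: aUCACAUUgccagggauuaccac
miR-27a-3p: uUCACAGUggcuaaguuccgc
miR-27b-3p: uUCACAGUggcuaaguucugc
miR-24-3p: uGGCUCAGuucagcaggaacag

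Counted from 1 at the 5′ end, miR-23a-3p and miR-23b-3p differ by U19A and miR-27a-3p and miR-27b-3p by C19U within their shared length. Both pairs are identical over their first 18 bases, so only reads of 18 nt could not be told apart; these made up 0.585% to 1.72% of the reads that began at the annotated start of those 4 arms. miR-24-3p is 1 sequence at both loci, identical over 23 bases, and 98.6% of its reads at MIR24-1 and 99.7% at MIR24-2 fell within the shared stretch.

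Among the 5p arms, the miR-27 pair carries the widest called differences between days, and the miR-24 pair begins at another base than annotated. Their sequences are given for that reason, again with bases 2 to 8 in capitals. The last 2 lines are the most frequent reads of the miR-24 5p arms, copied from the RefSeq hairpins.
miR-27a-5p: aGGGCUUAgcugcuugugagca
miR-27b-5p: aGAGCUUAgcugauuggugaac
miR-24-2-5p as annotated: uGCCUACUgagcugaaacacag
miR-24-1-5p as annotated: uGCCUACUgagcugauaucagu
miR-24-2-5p as most often read: gUGCCUACugagcugaaacacagu
miR-24-1-5p as most often read: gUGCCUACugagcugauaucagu

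The seeds of miR-27a-5p and miR-27b-5p differ (G3A), unlike those of their 3p partners. For miR-24-2-5p, 90.0% of reads began 1 nt upstream of the annotated 5′ end and 3.11% at it. For miR-24-1-5p, 65.6% began 1 nt upstream, 27.6% began 2 nt upstream and 6.78% at the annotated end. The base shift moves the seed from GCCUACU to UGCCUAC. The other arms with over 100 reads in every library began at the annotated end in 94.6% (miR-23b-3p) to 99.96% (miR-27a-5p) of reads.

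On hg19, MIR23A spans chr19:13947401-13947473, MIR27A chr19:13947254-13947331 and MIR24-2 chr19:13947101-13947173, within 373 nt. MIR23B spans chr9:97847490-97847586, MIR27B chr9:97847727-97847823 and MIR24-1 chr9:97848303-97848370, within 881 nt. By gene name in the GENCODE annotation of GRCh38, the chromosome 9 hairpins lie inside the protein-coding gene C9orf3 on its own strand. MIR23B and MIR27B are intronic there, and MIR24-1 overlaps an exon of a C9orf3 transcript classed as subject to nonsense-mediated decay. The chromosome 19 hairpins lie within an exon of AC020916.1, a long noncoding transcript on the same strand.

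The 3p arms held 96.1% of the 2624592 reads on the 12 arms. Over all libraries together, miR-27b-3p had 711624 reads, miR-27a-3p 631299, miR-24-3p 456076 at MIR24-1 and 450160 at MIR24-2, miR-23a-3p 202993 and miR-23b-3p 69408. The 5p arms followed with 56344 reads for miR-27a-5p, 40707 for miR-24-2-5p, 3565 for miR-27b-5p and 1637 for miR-24-1-5p. miR-23b-5p and miR-23a-5p had 397 and 382 reads, so their ratios rest on as few as 0 (miR-23a-5p) or 4 reads (miR-23b-5p) in a library. Between 99.2% and 99.9% of the reads on each hairpin's strand and window were of 18 to 26 nt and fully inside it. Between the hairpins, 0 reads were listed in the chromosome 19 cluster and 5 in the chromosome 9 cluster.

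Denominator libraries held 16792268 and 17033499 reads at 3 d and 32058013 to 52730703 at the later days. Reads of 18 to 26 nt were 54.0% and 50.1% of the denominator libraries at 3 d against 81.9% and 70.7% of the listed numerator reads; at later days they were 70.6% to 81.0% and 63.8% to 87.5%. A position is listed only where the denominator library has a read, so numerator reads at other positions are not counted. The median log2 ratio of all 8832 features was -0.17 and 0.42 in the 3 d tables, -0.53, -1.75 and -2.11 in the 13 d tables, and -0.52, -1.51 and -1.58 in the 31 d tables. The tables are thus shifted against each other, and differences between arms of the same table, in which the shift cancels, are given beside each ratio. The part of the size composition of the libraries in the 3 d ratios was not tested.

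The comparison of each day asks which arms differ between the libraries of a pair. At 3 d, miR-27a-5p and miR-27b-5p were higher in the numerator, 13.7-fold and 11.1-fold (log2 3.78 and 3.48, edgeR adjusted p = 0.00537 and 0.0130). With 2 pairs at this day, miR-27a-5p was no longer called without 3 d replicate 3, miR-27b-5p without either replicate, and neither with 3 d fitted alone. DESeq2 called both arms with log2 values of 2.49 and 2.2, and its scaling moved the 3 d median of all features from 0.18 to -1.11. Over all features, 12% were called higher and 0.928% lower at 3 d, so 2 of 12 arms called higher is near the background. At 13 d, miR-23b-3p, miR-27b-3p and miR-27b-5p of the chromosome 9 cluster and miR-23a-3p of the chromosome 19 cluster were lower in the numerator. At 31 d, miR-27b-5p was the 1 arm called, and it was lower; the call ended without 31 d replicate 2 or 3, under TMM scaling, under centring and without the pair as a block. The background at 13 d was 25.8% of features called lower and 7.3% called higher. At 31 d it was 17.9% and 1.65%. Read against these shares, 4 and 1 of 12 arms do not set the arms apart.

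The median log2 ratio of the 12 arms, fitted with edgeR, was 1.64 after 3 d, -1.39 after 13 d and -0.91 after 31 d. The same medians over all features tested were 0.18, -1.54 and -1.19. At 3 d all 12 arms stood above 0 (0.09 to 3.78). Abundant features had higher 3 d ratios than all features together. Over the 2726 features with at least 1600 reads, a number that 10 of the 12 arms reached, the medians were 1.61, -0.97 and -0.41. The 3 d median of the arms was thus close to that of features above this floor. These features were not matched to the arms on read number.

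**Figure D1:**
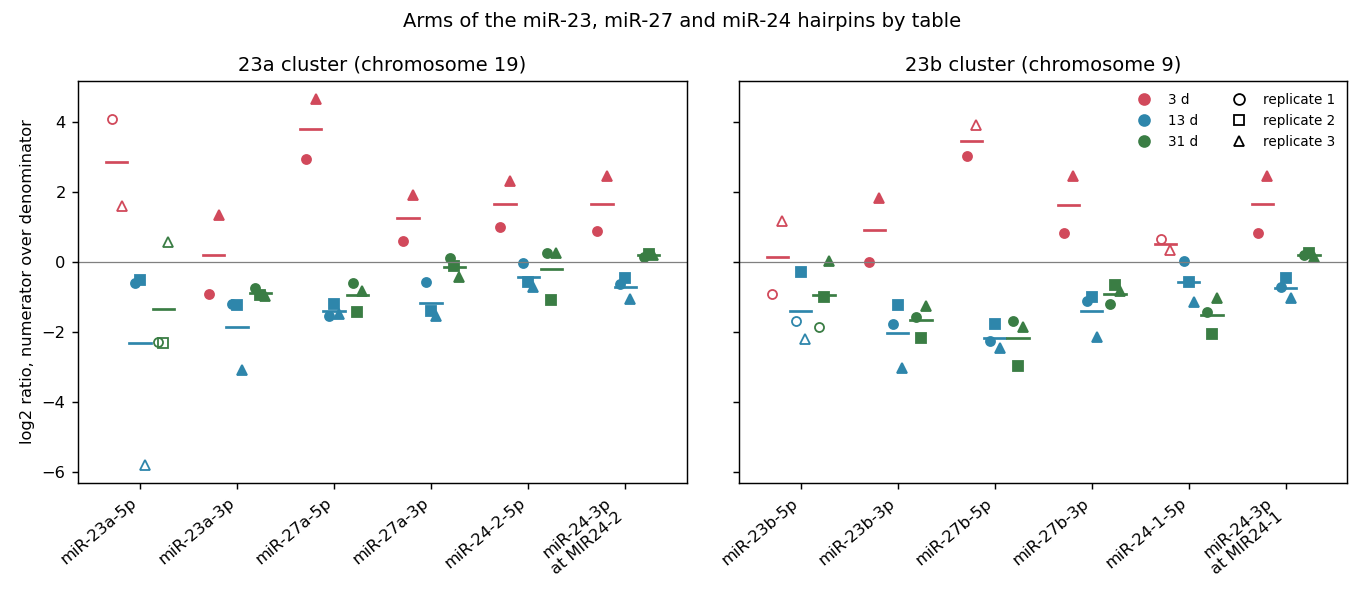
Log2 ratio of numerator over denominator for the 12 arms (x axis, by cluster) in each of the 8 tables. Colours mark the day, shapes the replicate, bars the mean of a day, and open points tables with under 20 reads in either library. The 3 d points of miR-27a-5p and miR-27b-5p lie between 2.92 and 4.64, while all their later points lie between -2.97 and -0.59.

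The miR-27 5p arms, the strands of MIR27A and MIR27B that are usually discarded, showed the widest called changes between days. miR-27a-5p had 454 denominator and 5615 numerator reads in replicate 1 at 3 d, and 129 and 3182 in replicate 3. At 13 d the order was turned, with 3914 and 1256 reads in replicate 1, 5635 and 1986 in replicate 2, and 5467 and 2206 in replicate 3. At 31 d the reads were 4183 and 2689, 7370 and 3057, and 5452 and 3749. The numerator was thus higher in both pairs at 3 d and lower in all 6 later pairs. The log2 ratios of 3 d did not overlap those of the later days, while those of 13 d and 31 d overlapped. In 3 d replicate 3 the mean length of miR-27a-5p reads was 23.1 nt in the denominator and 21.7 nt in the numerator. Its 21 nt and 22 nt reads there had log2 ratios of 4.69 and 6.07, against 4.64 for all its reads.

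On the deposited scaling, the log2 ratio of miR-27a-5p was 2.92 and 4.64 after 3 d, -1.53, -1.18 and -1.47 after 13 d, and -0.59, -1.44 and -0.82 after 31 d. Its mean was 3.78 ± 1.21 (SD, n = 2 pairs), -1.39 ± 0.18 (SD, n = 3) and -0.95 ± 0.44 (SD, n = 3). The difference of 13 d from 3 d was -5.17 on the log2 scale (edgeR adjusted p = 0.0020) and that of 31 d from 3 d was -4.73 (edgeR adjusted p = 0.00473). These values hold only if the tables of all days run in the same direction, which was assumed and not varied. Both differences were called in all 9 alternative analyses and all 8 analyses that left out a table; with DESeq2 they were -3.23 and -2.67.

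miR-27b-5p, the homologous strand of the chromosome 9 cluster, followed the same order at a lower read number. It had 33 denominator and 441 numerator reads in replicate 1 at 3 d and 15 and 227 in replicate 3. At 13 d it had 268 and 52, 501 and 117, and 322 and 65 reads, and at 31 d 279 and 84, 618 and 88, and 341 and 114. Its log2 ratio was 3.02 and 3.90 after 3 d, -2.24, -1.77 and -2.46 after 13 d, and -1.68, -2.97 and -1.86 after 31 d, again without overlap between 3 d and the later days. It was lower in the numerator at 13 d by 4.48-fold and at 31 d by 4.50-fold (edgeR adjusted p = 0.0191 and 0.0291). The 13 d and 31 d effects minus the 3 d effect came to -5.64 and -5.65 log2 units (edgeR adjusted p = 0.00251 and 0.00459), and these too were called in all 9 alternatives and all 8 leave-outs, with DESeq2 values of -3.71 and -3.61.

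The levels in the denominator libraries themselves differed between days. There miR-27a-5p stood at 27.04 and 7.57 reads per 1000000 library reads at 3 d and at 107 to 157 at the later days. For miR-27b-5p these values were 1.97 and 0.881 at 3 d and 7.04 to 13.95 later. The 3 d denominator libraries are also those with the low share of 18 to 26 nt reads given above, and its part in these values was not tested. On the deposited scaling, the numerator level of miR-27a-5p was 7.59 and 24.9 times the denominator level at 3 d, and 0.347 to 0.662 times later. For miR-27b-5p it was 8.10 and 14.9 times at 3 d, and 0.127 to 0.311 times later. Whether the denominator libraries of 3 d and of the later days received the same treatment was assumed and not tested.

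Within the hairpin, where depth and scaling cancel, miR-27a-5p made up 6.74% of MIR27A reads in the denominator and 26.7% in the numerator of replicate 1 at 3 d, and 1.67% and 10.2% in replicate 3. At 13 d its share was 19.7%, 16.6% and 5.92% in the denominator and 11.3%, 18.6% and 6.16% in the numerator libraries, higher in the numerator in 2 of 3 tables. At 31 d its share was 6.54%, 11.5% and 6.38% in the denominator libraries and 4.10%, 4.91% and 4.93% in the numerator libraries. For miR-27b-5p the share of MIR27B reads was 0.177% and 0.820% in replicate 1 at 3 d and 0.0810% and 0.227% in replicate 3. At 13 d it was 0.920%, 1.53% and 0.605% in the denominator and 0.417%, 0.896% and 0.477% in the numerator libraries. At 31 d it was 0.467%, 0.843% and 0.358% in the denominator and 0.336%, 0.169% and 0.176% in the numerator libraries. The exact binomial 95% intervals of the 2 libraries did not overlap in any of the 3 d tables. Nor did they in most later tables. They overlapped in 13 d replicate 3 for both arms and in 31 d replicate 1 for miR-27b-5p. These intervals cover counting error only.

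The log2 ratio of the 5p arm minus that of the 3p arm of the same hairpin was 2.33 and 2.73 for MIR27A at 3 d, against -1.33 to 0.21 at the later days. For MIR27B it was 2.2 and 1.45 at 3 d, against -2.32 to -0.33 later. In these 2 of 6 hairpins both 3 d tables lay above all 6 later tables. This held for 7.32% of the 437 loci in the tables with neighbouring features 30 to 48 nt apart, which is the spacing of the 2 arms of a hairpin.

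The other 4 hairpins did not share this order. MIR23B lay the other way, with -0.92 and -0.64 at 3 d and -0.27 to 1.27 later, on 6 to 22 denominator 5p reads at 3 d. MIR24-2 had a mean difference of -0.04 ± 0.57 (SD, n = 8 tables). For MIR24-1 the mean was -0.86 ± 1.10 (SD, n = 8), with the 5p arm below the 3p arm in 7 of 8 tables. Over all 8 tables together, 0 of the 6 hairpins had a 5p minus 3p difference that passed; the smallest adjusted exact sign-flip p was 0.422, for MIR24-1 (unadjusted 0.0703). The exact two-sided test reaches 0.0078 at the lowest with 8 tables. It averages over days, and the MIR27A and MIR27B differences have opposite signs at 3 d and at 31 d.

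**Figure D2:**
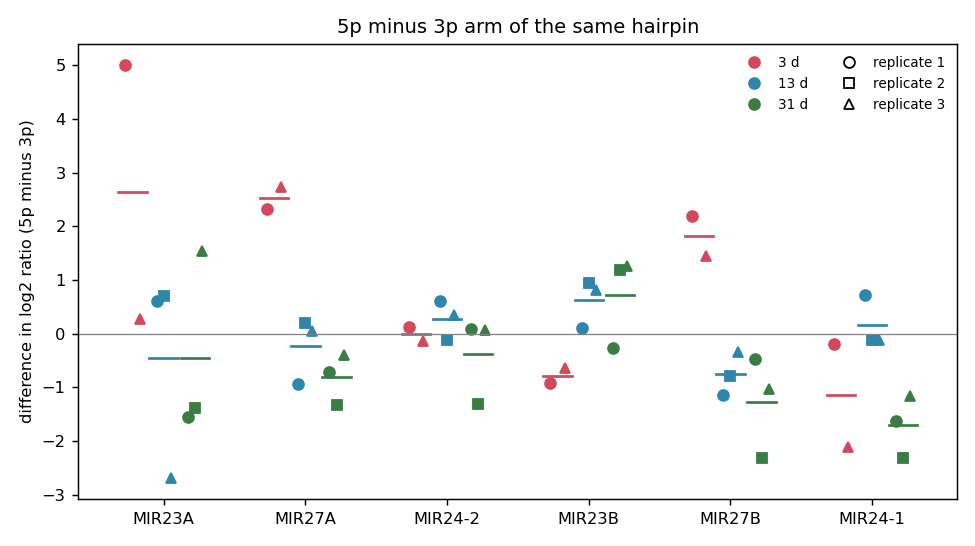
Difference between the log2 ratios of the 5p and 3p arms of each hairpin (y axis) in each table, coloured by day, with bars for the mean of a day. At 3 d MIR27A and MIR27B stand at 1.45 to 2.73, and their later tables reach at most 0.21.

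Among the 3p strands, miR-27b-3p, the most abundant arm, had 18592 denominator and 53323 numerator reads in replicate 1 at 3 d and 18493 and 99615 in replicate 3. At 13 d it had 28859 and 12404, 32177 and 12947, and 52931 and 13556 reads, and at 31 d 59472 and 24945, 72695 and 51927, and 94844 and 64844. The log2 ratios were 0.82 and 2.45 after 3 d, -1.10, -0.99 and -2.13 after 13 d, and -1.21, -0.65 and -0.83 after 31 d, so 3 d lay above both later days in every table. It was lower in the numerator at 13 d by 2.65-fold (edgeR adjusted p = 0.0365). Its 13 d effect minus its 3 d effect was -3.04 log2 units (edgeR adjusted p = 0.0113), and that of 31 d minus 3 d was -2.53 (edgeR adjusted p = 0.0266). Centring each table on its median ended all 3 calls, and the 13 d value then turned to 0.05. DESeq2 ended all 3 as well, with log2 values of -0.76, -1.10 and -0.47. The 13 d call also ended under TMM scaling, limma and no pair block and without 31 d replicate 2 or 3, and the call of 31 d against 3 d under TMM, limma and without any single 31 d replicate. All calls of a 3p arm between days, those below included, ended under centring and when 3 d replicate 3 was left out.

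Its paralog miR-27a-3p stood at log2 ratios of 0.59 and 1.90 after 3 d, -0.58, -1.39 and -1.53 after 13 d, and 0.12, -0.10 and -0.43 after 31 d. The 31 d tables sat around 0 on the deposited scaling, where miR-27b-3p stood below 0 in all 3. After the median of each table was subtracted, miR-27b-3p stood at -0.69, 0.85 and 0.75 and miR-27a-3p at 0.63, 1.40 and 1.15. The difference of the 13 d from the 3 d effect was -2.42 log2 units (edgeR adjusted p = 0.0270), also lost without 13 d replicate 2 or 13 d replicate 3, under TMM scaling, DESeq2 (-0.48) and limma, and without the pair as a block.

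miR-23a-3p was lower in the numerator at 13 d by 3.53-fold (edgeR adjusted p = 0.0290) and miR-23b-3p by 4.02-fold (edgeR adjusted p = 0.0193). The log2 ratio of miR-23a-3p was -0.92 and 1.33 after 3 d, -1.20, -1.23 and -3.09 after 13 d, and -0.74, -0.94 and -0.98 after 31 d. The 3 d tables of this arm disagreed in sign, and replicate 3 at 13 d stood apart from the other tables. The log2 ratio of miR-23b-3p was 0.01 and 1.82 after 3 d, -1.78, -1.24 and -3.02 after 13 d, and -1.57, -2.16 and -1.25 after 31 d. Its 13 d effect differed from that of 3 d by -2.92 log2 units (edgeR adjusted p = 0.0320), also lost without 13 d replicate 1 or 3 or 31 d replicate 2, and under TMM scaling, DESeq2 (-0.99) and limma. All 4 calls at 13 d were lost when any of the 3 replicates of 13 d was left out, and under TMM scaling or centring; that of miR-23a-3p also ended with DESeq2 and without 31 d replicate 2.

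miR-24-3p, read at both of its loci, had log2 ratios at MIR24-2 of 0.89 and 2.44 after 3 d, -0.63, -0.46 and -1.07 after 13 d, and 0.15, 0.23 and 0.19 after 31 d. At MIR24-1 they were 0.84 and 2.46, -0.70, -0.46 and -1.03, and 0.19, 0.27 and 0.14. It had the highest mean ratio of the 3p strands at 13 d and 31 d, and the 31 d spread was 0.04 (SD, n = 3) at MIR24-2. The 13 d minus 3 d difference was -2.38 log2 units at both loci (edgeR adjusted p = 0.0303 and 0.0314), also lost under TMM scaling, DESeq2 and limma, without the pair as a block, and without any single 13 d replicate. It was lost at both loci without 31 d replicate 3, and at MIR24-1 also without 31 d replicate 2.

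The equal values at both loci follow the read numbers: MIR24-1 held 49.9% to 51.3% of miR-24-3p reads in the denominator libraries and 49.7% to 51.1% in the numerator libraries. The placing of reads with several possible positions is a step not given in the sources used, and the 2 loci cannot be told apart from these reads. The reads of 24 nt, which carry a base that differs between the loci, were 3666 at MIR24-1 and 814 at MIR24-2 in the denominator libraries (81.8% at MIR24-1, exact binomial 95% interval 80.7% to 82.95%). In the numerator libraries they were 1928 and 438 (81.5%, 79.9% to 83.0%). These are sums over 8 tables, and single tables differed in both directions. Counting all 24 nt reads of the arm, 13 d replicate 3 had 788 and 255 in the denominator against 157 and 32 in the numerator, and 31 d replicate 1 had 962 and 171 against 439 and 109.

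Counting all arms, 7 of 12 had a 13 d effect below the 3 d effect and 3 of 12 a 31 d effect below it, with 0 above. The 7 include miR-24-3p at both loci, 1 sequence counted as 2 arms. Over all features 22.9% were called lower and 0.883% higher at 13 d against 3 d, and 23.1% lower and 0.815% higher at 31 d against 3 d. Abundant features were called more often. Of the 2726 features with at least 1600 reads, fitted alone, 1168 were lower and 62 higher at 13 d against 3 d. At 31 d against 3 d 1296 were lower and 90 higher. In that fit 7 and 4 of 10 arms were called. Between 31 d and 13 d edgeR called 0 of 12 arms and 0% of all features; 0 arms and 684 features passed an unadjusted 0.05, and DESeq2 and limma called 0 arms as well. The 3 d comparisons share the 3 d tables, so the 2 sets of calls are not independent.

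In 10 of the 12 arms both 3 d tables lay above all 6 later tables, which held for 33.8% of all features. The 10 arms again count miR-24-3p at both loci. After the median of each table was subtracted, this was left for 3 arms, miR-27a-5p, miR-27b-5p and miR-27b-3p, against 21.9% of all features. Both shares cover features of all read numbers. They were not computed for abundant features alone, which had higher 3 d ratios. Centred in this way, miR-27a-5p stood at 3.10 and 4.22 at 3 d and -0.997 to 0.76 later, and ranked above 87.8% and 93.6% of features at 3 d. miR-27b-5p stood at 3.19 and 3.47 at 3 d and -1.71 to -0.02 later, above 88.7% and 90.4% of features at 3 d.

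The paralog comparison asks whether the chromosome 19 and chromosome 9 clusters differ within a table. The log2 ratio of miR-23a-3p minus that of miR-23b-3p was -0.93 and -0.49 after 3 d, 0.58, 0.01 and -0.06 after 13 d, and 0.84, 1.23 and 0.27 after 31 d. For miR-27a-3p minus miR-27b-3p the values were -0.22 and -0.54, 0.52, -0.40 and 0.60, and 1.33, 0.55 and 0.40. In both seed families the chromosome 9 member had the higher ratio in both 3 d tables and the lower one in all 3 tables of 31 d, while the 13 d values overlapped those of 31 d in both families and those of 3 d in the miR-27 family.

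In reads, miR-23b-3p held 24.5% and 19.1% of the miR-23 3p reads in the 3 d denominator libraries and 38.2% and 24.9% in the numerator libraries. On day 31 the order was turned, with 26.7%, 34.2% and 23.7% in the denominator and 17.0%, 18.2% and 20.5% in the numerator libraries. miR-27b-3p held 74.8% and 70.9% of miR-27 3p reads in the denominator and 77.5% and 78.0% in the numerator libraries at 3 d. At 31 d it held 49.9%, 56.2% and 54.2% in the denominator and 28.4%, 46.8% and 47.3% in the numerator libraries.

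Over all 8 tables the mean difference was 0.18 ± 0.70 (SD, n = 8) for the miR-23 pair and 0.28 ± 0.62 (SD, n = 8) for the miR-27 pair, and neither passed the exact sign-flip test (adjusted p = 0.492 and 0.387). The test averages over days, and both pairs had opposite signs at 3 d and 31 d, so it cannot decide on a difference at a single day. For miR-24-2-5p minus miR-24-1-5p it was 0.83 ± 0.76 (SD, n = 8), above 0 in 7 of 8 tables (exact sign-flip p = 0.0234, adjusted over the 3 pairs 0.0703). The miR-24 pair had values of 0.36 and 1.96 after 3 d, -0.04, 0.01 and 0.42 after 13 d, and 1.67, 0.97 and 1.28 after 31 d. miR-24-1-5p had 11 to 34 reads in the 3 d libraries.

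**Figure D3:**
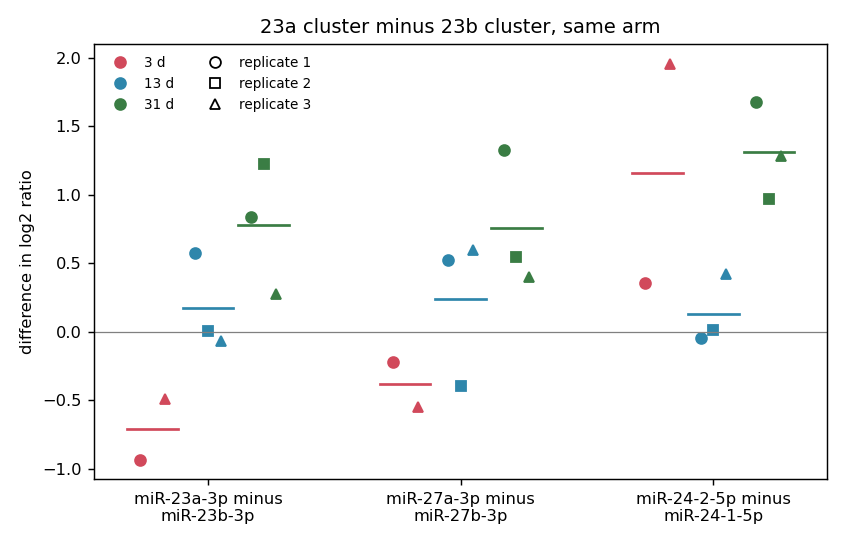
Difference between the log2 ratios of paralogous arms, chromosome 19 minus chromosome 9, in each table (y axis), coloured by day, with bars for the mean of a day. The miR-23 and miR-27 3p pairs lie below 0 in both 3 d tables and at 0.27 to 1.33 at 31 d.

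The remaining 5p arms were not called on any day. miR-24-2-5p had mean log2 ratios of 1.66 ± 0.92 (SD, n = 2) at 3 d, -0.44 ± 0.37 (SD, n = 3) at 13 d and -0.19 ± 0.77 (SD, n = 3) at 31 d. miR-24-1-5p stood at 0.50 ± 0.21 (SD, n = 2), -0.57 ± 0.58 (SD, n = 3) and -1.50 ± 0.52 (SD, n = 3). For miR-23a-5p the values ran from -5.78 to 4.08, the lowest of them on 24 denominator and 0 numerator reads in 13 d replicate 3, and for miR-23b-5p from -2.2 to 1.18.

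The start and the length of the reads were compared for the 8 arms with at least 100 reads in every library. The share of reads at the annotated 5′ end, numerator minus denominator, passed the exact sign-flip test in 0 of 8 arms, but single tables moved further than the means over all days. For miR-23b-3p it was -2.89 and -1.30 percentage points after 3 d, 2.71, 2.72 and 1.77 after 13 d, and -0.27 to 0.54 after 31 d. For miR-24-2-5p it ran from -2.34 at 3 d to 2.87 at 31 d. It was above 0 in 8 of 8 tables for miR-27a-3p, by 0.040 points on average (exact sign-flip p = 0.0078, adjusted 0.0625). miR-24-3p reads at MIR24-2 were shorter in the numerator in 8 of 8 tables, by 0.32 ± 0.24 nt (SD, n = 8), and at MIR24-1 in 7 of 8, by 0.32 ± 0.26 nt. The exact sign-flip p was 0.0078 and 0.0156, which gave 0.0625 and 0.0833 after adjustment over the 16 tests, so neither passed. The shift was -0.02 and -0.08 nt at 3 d, -0.35, -0.22 and -0.49 nt at 13 d, and -0.21, -0.74 and -0.44 nt at 31 d at MIR24-2. Over all features with at least 100 reads in both libraries, the median shift of a table was between -0.14 and 0.01 nt.

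By read length, the 20 nt form of miR-24-3p had a higher ratio than the 22 nt form in all 6 later tables, by 0.51 to 2.28 log2 units at MIR24-2 and 0.42 to 2.41 at MIR24-1. These 2 forms held 39.7% and 39.6% of the miR-24-3p reads at MIR24-2. In 31 d replicate 2 the 20 nt form stood at 1.37 and the 22 nt form at -0.91, so the 2 forms of 1 microRNA lay on opposite sides of 0. Both lay above the median of all features in that table (-1.51). At 3 d the difference was -0.40 and 0.63. The same order, 20 nt above 22 nt in all 6 later tables, held for miR-23a-3p (0.28 to 1.49), miR-23b-3p (0.47 to 2.08) and miR-27b-3p (0.11 to 1.22), and in 4 of 6 for miR-27a-3p (-1.23 to 0.76). For miR-23b-3p, whose most frequent read of 24 nt held 53.6% of its reads, the 20 nt form had 17 to 115 reads in a later library. At 3 d the 20 nt form was below the 22 nt form in both tables for miR-23a-3p, miR-23b-3p and miR-27b-3p. These orders are descriptions of 8 tables and were not tested.

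**Figure D4:**
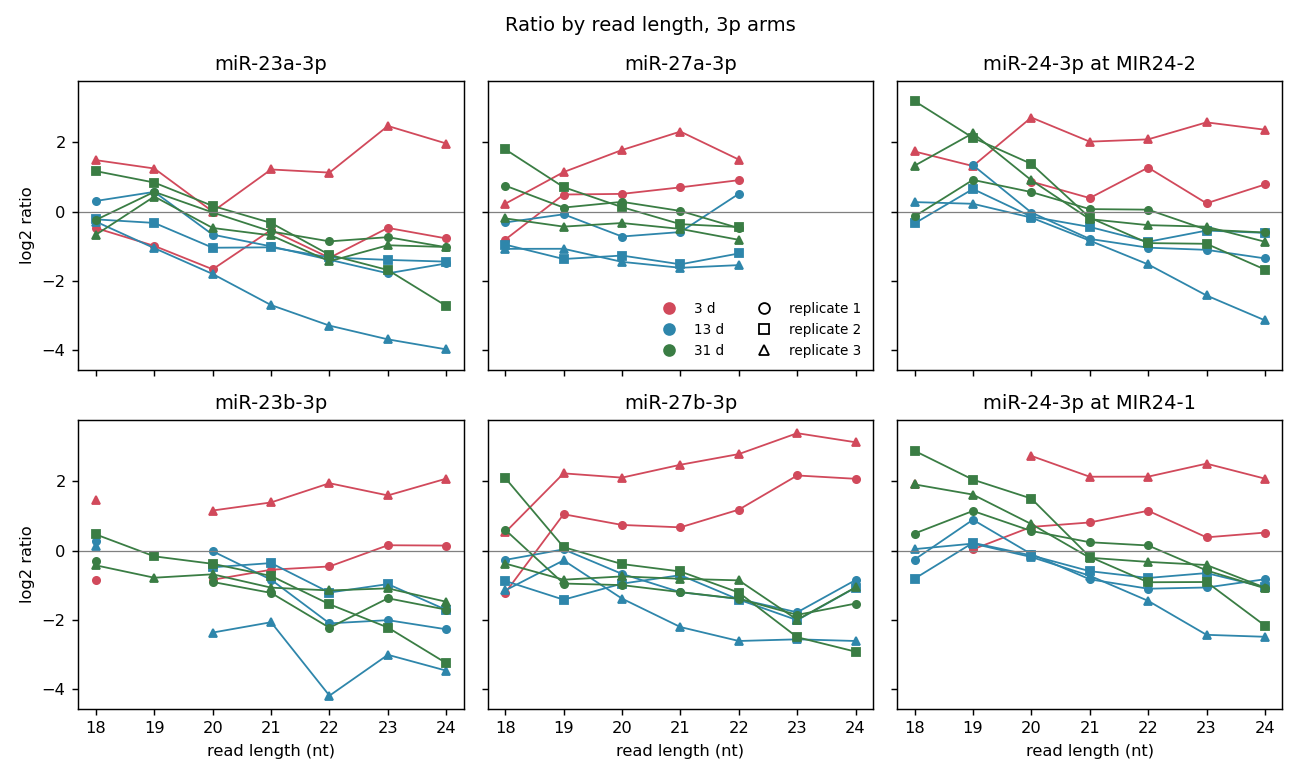
Log2 ratio of numerator over denominator (y axis) by read length (x axis, nt) for the 6 arms of the 3p side, 1 line per table, coloured by day; lengths with under 10 reads in either library are left out. For miR-24-3p the 31 d replicate 2 line runs from 1.37 at 20 nt to -0.91 at 22 nt at MIR24-2.

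On the strand opposite MIR24-1 lies MIR3074, whose 5p product lies opposite most bases of miR-24-3p.
miR-3074-5p: gUUCCUGCugaacugagccag
Reads overlapping it numbered 1021 over all libraries. They had log2 ratios of 1.02 and 2.53 after 3 d, -2.12, -2.69 and -3.09 after 13 d, and -2.91, -2.80 and -2.57 after 31 d, on 8 to 145 reads in a library. The later values lay below all those of miR-24-3p from the opposite strand (-1.07 to 0.27). The whole MIR24-1 window held 1200 opposite-strand reads and the MIR24-2 window 996. As miR-24-3p is 1 sequence at both loci, reads opposite it may fit either locus. The reads given here for miR-3074-5p are thus not shown to come from MIR3074 alone, and their locus was not tested.

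Outside the 6 windows, the 3 features whose log2 ratios correlated best over the 8 tables with the mean of the 6 arms of the 3p side began at position 49057614 of chromosome 3 (minus strand, Pearson r = 0.997), 155165028 of chromosome 1 (plus strand, r = 0.992) and 67236251 of chromosome 16 (minus strand, r = 0.989). They are the top of 8820 features, share the libraries and their scaling with the arms, and were named by position only. The feature on chromosome 3 stood at 0.06 and 2.67 after 3 d, -1.68, -1.35 and -3.003 after 13 d, and -0.99, -0.94 and -0.98 after 31 d. The first 2 of the 3 belong to loci with neighbouring features 30 to 48 nt apart.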

How the data were processed

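The aligner was Bowtie2 2.2.9 and the build hg19 (GRCh37), per the submitters' processing notes. The authors deposited 8 tables without headers; each lists alignments by position and strand with whole-number read counts of a denominator and a numerator library (the counts used here) and a deposited ratio of scaled values. In each table the ratio equals the quotient of the counts times 1 constant, and that constant was the scaling used. The 16 columns of scaled values carry no library name and were not used. Libraries are paired because the labels name 1 table per pair. Over features, deviations of the libraries of a table from their day's means correlated at r = 0.504 at 3 d, 0.373 to 0.621 at 13 d and 0.782, 0.663 and -0.128 at 31 d. Libraries of different tables gave -0.504 at 3 d, -0.428 to 0.0659 at 13 d and -0.744 to 0.376 at 31 d. With 2 pairs at 3 d, the equal size and opposite sign there follow from the calculation.

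Reads of 18 to 26 nt were summed by chains of 5′ ends (at least 10 reads each, gaps up to 8 nt); features listed in all 8 tables with at least 160 reads were tested. Inside the hairpin windows the 12 arms took their place. The fit was edgeR 4.0.16 (quasi-likelihood, robust) in R 4.3.3, with the pair as a block, 1 numerator effect per day and Benjamini-Hochberg adjustment over all features at 0.05; it was tested on simulated data. Ratios per table add 0.5 to each count. Differences within tables were tested by exact two-sided sign-flip permutation. Arms were placed by the offset of the RefSeq mature sequence in a hairpin as long as its hg19 window; no coordinates were converted. Alternatives used TMM, centring, other lengths and filters, DESeq2 1.42.0, limma 3.58.1, no block, single days, the most frequent 5′ end and left-out tables. All 12 arms were named, and 3 further features by correlation. The members and lists were chosen with earlier results of these data known.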

Additional observations from a re-analysis of the deposited data

Results flagged for a closer look

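In 10 cases the effect of an arm differed between days by the edgeR contrast of the day effects. Of these, 2 are miR-24-3p at its loci MIR24-2 and MIR24-1, which is 1 sequence. For 13 d minus 3 d, the log2 difference was -5.17 for miR-27a-5p, -5.64 for miR-27b-5p, -3.04 for miR-27b-3p, -2.92 for miR-23b-3p, -2.42 for miR-27a-3p, and -2.38 for miR-24-3p at MIR24-2 and at MIR24-1. For 31 d minus 3 d it was -4.73 for miR-27a-5p, -5.65 for miR-27b-5p and -2.53 for miR-27b-3p. All features together had a median of -1.27 for 13 d minus 3 d and -1.32 for 31 d minus 3 d. Over features with at least 1600 reads these medians were -2.08 and -2.63, and over the 12 arms -2.40 and -1.94.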

How the results depend on the processing

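The 3 d calls of miR-27a-5p and miR-27b-5p held in 9 of 10 alternative analyses, and their differences between days in all 9 that give such a difference. At 3 d, 5 arms were called with at least 1600 reads per feature and 0 with each day fitted alone, against 2; leaving out a table gave 0 to 2. With at least 1600 reads, 1088 of 2726 features were called higher and 100 lower at 3 d. With each day fitted alone, 616 of 8832 features were higher and 114 lower there. At 13 d the count of 4 became 0 under TMM or centring and 2 with DESeq2, and 0 to 6 with a table left out. Of 8832 features, TMM called 1599 lower and 1136 higher at 13 d, centring 724 and 1656, and DESeq2 2416 and 1410. With a table left out, 255 to 3036 features were lower and 41 to 1046 higher. At 31 d the count of 1 became 0 under TMM, centring or no replicate block. Of 8832 features, these called 832, 629 and 844 lower and 580, 696 and 71 higher. The count became 2 with 20 to 24 nt reads, no filter beyond listing, at least 1600 reads or each day alone. These called 1423 of 4672, 2405 of 12416, 546 of 2726 and 1310 of 8832 features lower, and 192, 158, 103 and 125 higher. It became 3 with the most frequent 5′ end only, beside 1430 of 5820 features lower and 233 higher. Leaving out a table gave 0 to 2 arms, with 3 to 2078 features lower and 2 to 281 higher. For 13 d against 3 d, 7 became 2 with centring or DESeq2, 3 with TMM, 4 with limma or no replicate block, and 2 to 8 with a table left out. Of 8832 features, centring called 895 lower and 502 higher there, DESeq2 1314 and 1415, and TMM 1504 and 323. Limma called 2210 and 170 and no replicate block 1602 and 33. With a table left out, 1223 to 2214 features were lower and 21 to 88 higher. For 31 d against 3 d, 3 became 5 with the most frequent 5′ end only, beside 2353 of 5820 features lower and 127 higher. Centring turned miR-27b-3p at 13 d to 0.053 (adjusted p = 0.949, edgeR). The MIR27A 5p minus 3p mean of 0.24 turned to -0.19 with the median ratio of alignments and ran from -0.11 to 0.47 with a table left out. The miR-24-2-5p minus miR-24-1-5p mean of 0.83 passed with the most frequent 5′ end only (0.96, exact adjusted p = 0.0469) and without 13 d replicate 1 (0.95); its range with a table left out was 0.67 to 0.95. The count of passing paralog pairs was then 1, and 0 to 1 with a table left out; that of hairpins by arm was 1 with the median ratio of alignments. With 2 pairs at 3 d, 1 table decides much of each 3 d value. miR-23a-5p and miR-23b-5p did not reach the 1600 read minimum and have no value there.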
